A study of Mus musculus with 17 samples.

Results

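CD8+ T cells from the brain were compared with CD8+ T cells from the blood of wild type (WT) mice, using the 10 libraries whose labels give the strain WT: 5 from brain and 5 from blood, of 17 libraries in all. The series set such cells from aged animals beside cells of APP-PS1 mice, in which mutant human amyloid precursor and presenilin 1 genes are driven in neurons by the prion protein promoter to model Alzheimer's disease, and which supplied 4 brain and 3 blood libraries. Both WT groups carried the disease state control, were labelled female and received no treatment named in the labels. The sources used here do not give their ages or the genetic background of the WT animals. The housing text, written for the APP-PS1 line, describes breeding free of specific pathogens and a move to ordinary conditions shortly before use. Brain cells came from both hemispheres, brainstem and cerebellum included, after mechanical homogenization and removal of myelin on percoll. Red cells in blood were lysed with a buffer. Both kinds of suspension then received a viability dye, an Fc block and fluorescent antibodies, and the sources used here do not give how the CD8+ cells were separated. The tissue and the way its cells were prepared therefore cannot be told apart. The design text names 10 WT mice, as many as there are WT libraries, and nothing pairs brain with blood of an animal. The p-values therefore cover only the spread between libraries, part of which may be technical. That spread was estimated over all 17 libraries, APP-PS1 included.

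CD8+ T cells are the cytotoxic lineage of T lymphocytes. Circulating cells leave lymph nodes and tissues along a gradient of sphingosine-1-phosphate, sensed by the receptor S1pr1, whose gene is activated by the transcription factor Klf2. Memory cells that stay in a tissue silence Klf2 and S1pr1, and many of them carry the chemokine receptor Cxcr6 and the integrin chains Itga1 (CD49a) and Itgae (CD103). In the brain such resident cells are known from earlier infections and accumulate with age.

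The WT brain libraries held 51161 to 169903 counts and the WT blood libraries 62604 to 214670 counts, in 5874 to 8764 and 6096 to 9102 genes. The cells matched their label: Cd8a and Cd8b1, the chains of the CD8 coreceptor, and Cd3e, a chain of the T cell receptor complex, were present in every library. Cd4 had no count in either group, which allows up to 5.75 CPM (a gene's counts scaled to the library total) over the brain group and 5.04 over the blood group, counting error only. A principal component with 20.2% of the variance placed the 5 brain libraries on one side and the 5 blood libraries on the other. WT brain replicate 3 and WT blood replicate 4, the shallowest of each group, stood far from the rest on it, at 29.2 and -25.7 against -7.79 to 8.91. The mean correlation of WT brain replicate 2 was 0.817 with the other brain libraries and 0.819 with the blood libraries. In every other WT library it was higher within the tissue. Xist, the RNA of the inactive X chromosome, had 1 count of 62604 in WT blood replicate 4 and 4 of 51161 in WT brain replicate 3. The other WT libraries had 18 to 68 from larger totals, such as 29 of 214670 in WT blood replicate 1. The Y-linked genes had 0 counts in both shallow libraries. Where a call of a named gene changes without these 2 libraries, it is given with and without them.

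The called genes included Klf2, Klf3 and S1pr1, genes of quiescence and recirculation, lower in brain, and Cxcr6, Xcl1 and Isg20, genes of tissue residency, higher. The 2 chemokines that were called moved in opposite directions, Xcl1 higher in brain and Ccl5 lower. Of 2366 genes that passed the expression filter, 18 were called, or 0.761%, by edgeR's quasi-likelihood test at an adjusted p under 0.05 (Benjamini-Hochberg). There were 5 higher in brain (0.211%) and 13 lower (0.549%), while the log2 fold changes of all tested genes were balanced, with 1220 positive, 1146 negative and a median of 0.02. Without WT brain replicate 3 and WT blood replicate 4 together, an alternative chosen after seeing the data, 10 genes were called, 9 of them among the 18. Brain and blood values did not overlap at all for 62 genes (2.62%), 35 with brain above and 27 with brain below, and 15 of the 18 called genes were among them. On GRCm38, in GENCODE M21, Xcl1 lies on chromosome 1 from 164931644 to 164935527, Dusp2 on chromosome 2 from 127336159 to 127338376, S1pr1 on chromosome 3 from 115710433 to 115715072 and Ccl5 on chromosome 11 from 83525778 to 83530518. Gzmm lies on chromosome 10 from 79689020 to 79695261, Arl4c on chromosome 1 from 88673125 to 88702221 and Itga1 on chromosome 13 from 114953096 to 115101964, and all of these are protein coding.

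**Figure D1:**
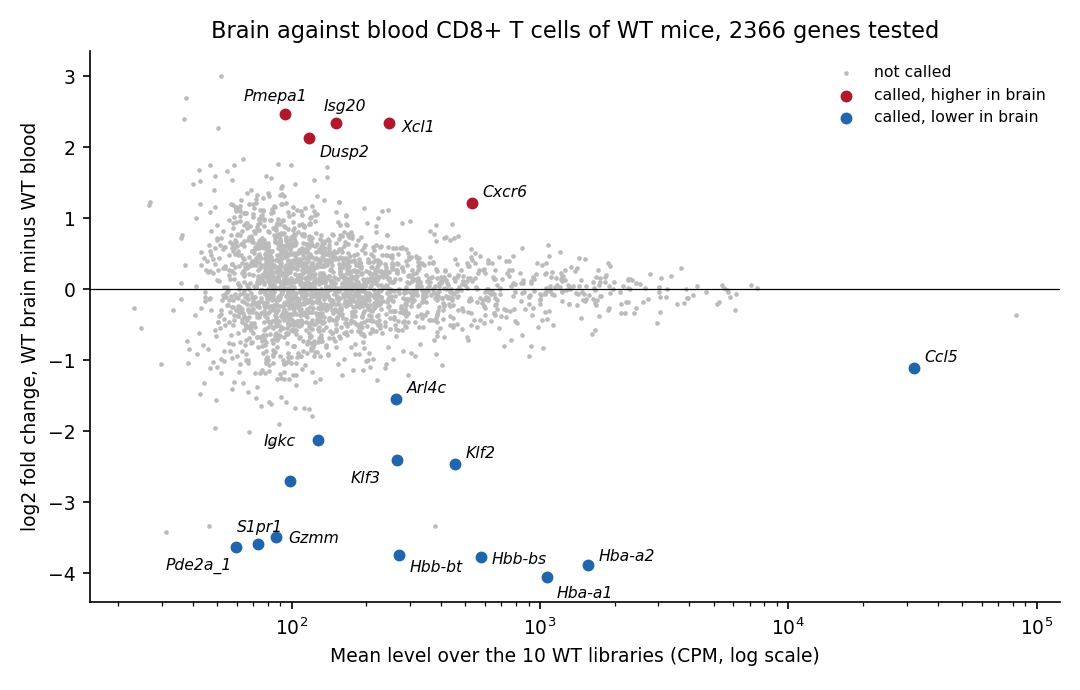
Log2 fold change of WT brain over WT blood against the mean level over the 10 WT libraries (CPM, log axis), 1 point per tested gene, with called genes coloured and 1 of them left without a name. The 5 genes called higher in brain lie between 1.21 and 2.47, the haemoglobin genes lie lowest, and Ccl5 stands far to the right of the other called genes.

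Klf2 and Klf3, Kruppel-like transcription factors that hold T cells in a quiescent, recirculating state, were lower in every brain library. Values per library are given throughout in CPM from replicate 1 to replicate 5. Klf2 stood at 122, 200.1, 137, 114 and 136 CPM in brain and at 661, 1052, 557, 1070.2 and 521 CPM in blood. The highest brain library, replicate 2, lay below the lowest blood library, and the fold change on the log2 scale was -2.46 (adjusted p = 1.29e-06, SE 0.33). Klf3 stood at 122, 64.7, 58.6, 68.3 and 115 CPM in brain and at 270.2, 569, 446, 687 and 246 CPM in blood. Its groups did not overlap either, and the change was -2.41 on the log2 scale (adjusted p = 1.27e-05, SE 0.36). Both calls held without any single WT library, with adjusted p of at most 4.41e-05 for Klf2 and 0.000312 for Klf3.

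S1pr1, the egress receptor and a target of Klf2, was close to the limit of detection in brain. S1pr1 stood at 0, 29.4, 0, 0 and 10.4 CPM in brain, from 6 counts, and at 74.5, 166, 145, 256 and 49.1 CPM in blood, from 71 counts. It had no count in 3 of the 5 brain libraries, and the groups did not overlap (log2 fold change -3.59, SE 0.85, adjusted p = 0.0151). The call ended without WT brain replicate 1 or 4 (adjusted p up to 0.0822) and with limma voom (0.0703), and the fold change moved to -5.05 without WT brain replicate 2. Without WT blood replicate 2, 3 or 4, or without the 2 libraries that stood apart, the gene did not pass the filter and was not tested.

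The other receptors of egress and homing varied. Of 14 such genes listed, 10 passed the filter, 4 with positive and 6 with negative values around a median of -0.25, and 2 were called lower, S1pr1 among them, against 13 of 2366 over all genes (0.549%). That median turned to 0.09 with only the WT libraries in the fit and to 0.08 without the 2 libraries that stood apart. This list, like the others here, was chosen with earlier results of these data known, so its shares are descriptive and test nothing. Ccr7, the receptor that guides cells into lymph nodes, stood at 13.6, 29.4, 19.5, 22.8 and 10.4 CPM in brain and at 97.8, 86.99, 33.4, 128 and 49.1 CPM in blood. All 5 brain values of Ccr7 lay below all 5 blood values, yet the difference was not called (log2 fold change -1.95, SE 0.58, adjusted p = 0.106). S1pr4, a related receptor below the filter, stood at 27.2, 35.3, 39.1, 37.9 and 31.3 CPM in brain and at 135, 86.99, 123, 63.9 and 78.6 CPM in blood, again without overlap (adjusted p = 0.62 in the test extended to genes of low count). S1pr5 had 2 counts over the brain libraries, both in replicate 5, and 44 over blood, where replicate 3 had none (adjusted p = 0.133), and it was called without WT brain replicate 5 (0.0257) and with only the WT libraries in the fit (0.0446). Cx3cr1, the fractalkine receptor of circulating effector cells, stood at 13.6, 29.4, 0, 7.59 and 0 CPM in brain and at 46.6, 127, 33.4, 128 and 98.2 CPM in blood, without overlap and without a call (adjusted p = 0.203 in the same test). The integrin chains of the list lay near or above 0, from -0.13 for Itgb7 to 0.69 for Itgb1, and none was called.

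Naive and quiescence regulators as a group had negative values. Of 17 listed genes, 12 passed the filter and 11 of these were negative, with a median of -0.97 against 0.02 over all tested genes. Klf2 and Klf3 were the 2 called, against 13 of 2366 called lower over all genes (0.549%). Lower brain values at an unadjusted p under 0.05 were found for 7 of the 12, against 89 of the 2366. These shares are descriptive, since the list was chosen with earlier results of these data known. Tcf7, the transcription factor TCF-1 of naive and memory stem-like cells, stood at 95.3, 247, 235, 175 and 157 CPM in brain and at 396, 482, 636, 415 and 118 CPM in blood. WT blood replicate 5, at 118 CPM, lay inside the brain range, and the gene was called only without that library (log2 fold change -1.46, adjusted p = 0.00734, against -1.21 and 0.0828 with it) and after thinning every library to one depth (0.0215). Lef1, the partner factor of TCF-1, stood at 122, 135, 195, 60.7 and 125 CPM in brain and at 340.1, 221, 212, 351 and 177 CPM in blood. Its groups overlapped narrowly (log2 fold change -1.14, adjusted p = 0.194). Ets1, a factor of T cell survival and homeostasis, did not overlap between groups, at 546 to 860 CPM in brain and 874 to 1527 CPM in blood, and was not called (log2 fold change -0.80, adjusted p = 0.123). Il7r, Foxp1 and Btg1 had values of -0.53, -0.37 and 0.00, and Txnip was the 1 positive member at 0.25. A library gives 1 value per gene, so fewer cells of a naive or circulating type and less RNA of these genes per cell cannot be told apart.

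Higher in brain were the chemokine receptor Cxcr6, which binds the membrane-bound ligand Cxcl16, and Xcl1, the chemokine that attracts cross-presenting dendritic cells. Cxcr6 stood at 612, 518, 1231, 849.8 and 595 CPM in brain and at 340.1, 206, 178, 335 and 471 CPM in blood. The lowest brain library, replicate 2, lay above the highest blood library, replicate 5 (log2 fold change 1.21, SE 0.28, adjusted p = 0.013). The Cxcr6 call ended without WT brain replicate 3 (0.0949), WT blood replicate 2 (0.0965) or WT blood replicate 3 (0.0869), without the 2 libraries that stood apart (0.139) and with both wider filters (0.0725 and 0.145).

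Xcl1 stood at 395, 365, 352, 622 and 365 CPM in brain and at 83.8, 86.99, 156, 0 and 49.1 CPM in blood, where replicate 4 had no count. Its groups were separated by more than the range within blood, and the log2 fold change was 2.34 (adjusted p = 0.000121, SE 0.40). The Xcl1 call held without any single WT library (adjusted p up to 0.00259). Isg20, an interferon-induced exonuclease that is also part of residency signatures, stood at 204, 147, 313, 417 and 198 CPM in brain and at 55.9, 7.91, 33.4, 31.9 and 98.2 CPM in blood. All 5 brain values exceeded all blood values (log2 fold change 2.34, SE 0.45, adjusted p = 0.00088), and without single libraries the adjusted p reached at most 0.0132.

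Itga1, the CD49a chain that binds collagen IV of basement membranes, had too few counts for the main filter. Itga1 stood at 27.2, 112, 97.7, 220.03 and 188 CPM in brain, from 73 counts, and at 23.3, 0, 11.1, 0 and 19.6 CPM in blood, from 8 counts. Every brain library lay above every blood library, although brain replicate 1 did so narrowly. In a second edgeR fit that kept every gene with at least 20 counts over the WT libraries, 22 of 6085 genes were called (0.362%), 7 higher and 15 lower in brain, and Itga1 was among them (log2 fold change 3.19, SE 0.76, adjusted p = 0.00989). The call of Itga1 ended without WT brain replicate 4 (0.137), WT brain replicate 5 (0.0761) or WT blood replicate 2 (0.0933). Itgae, the CD103 chain that binds E-cadherin, had 20 counts in brain and 2 in blood. Its counts came from brain replicates 2, 4 and 5, while replicates 1 and 3 had none, and the difference was not called (adjusted p = 0.482).

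Tissue residency genes as listed comprised 26 symbols, of which 14 passed the filter. Of these, 10 were positive with a median of 1.17, and 3 were called higher (Cxcr6, Xcl1 and Isg20), against 5 of 2366 over all genes. The residency list too was chosen with earlier results of these data known, so the share is descriptive. The negative members included Cd69, the activation and retention marker that binds S1pr1 and removes it from the cell surface. Cd69 stood at 13.6, 35.3, 0, 83.5 and 62.6 CPM in brain and at 83.8, 55.4, 111, 95.8 and 58.9 CPM in blood, so its RNA did not separate the tissues (log2 fold change -0.94, adjusted p = 0.776). Rgs1, a regulator that dampens chemokine receptor signals, stood at 149.7, 124, 176, 258 and 83.5 CPM in brain and at 97.8, 39.5, 44.6, 31.9 and 29.5 CPM in blood. Only blood replicate 1 reached into the brain range (log2 fold change 1.48, adjusted p = 0.14). Runx3, a transcription factor of residency and of the CD8 lineage, had a value of 0.59, Bhlhe40 one of -0.25 and Skil, a feedback inhibitor of TGF-beta signalling, one of 1.03. None of these 3 was called.

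**Figure D2:**
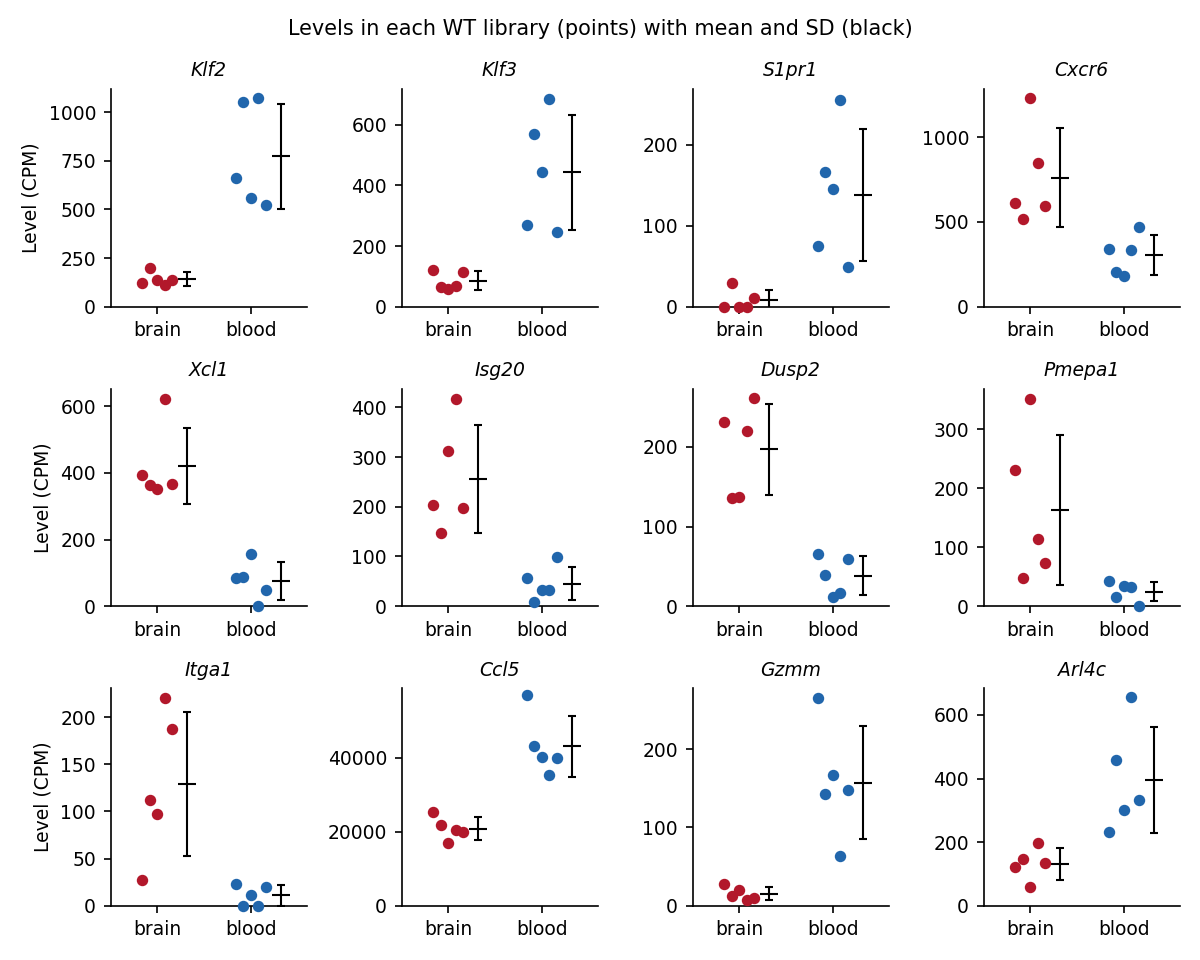
Levels of 12 genes in each WT library (points, CPM), with the mean and SD of each tissue in black, 5 libraries a group. Klf2, Klf3, S1pr1, Ccl5, Gzmm and Arl4c lie lower in all brain libraries, and Cxcr6, Xcl1, Isg20, Dusp2, Pmepa1 and Itga1 lie higher in all of them.

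The other 2 genes called higher are feedback regulators. Dusp2, a nuclear phosphatase induced by T cell activation that inactivates MAP kinases, stood at 231, 135, 137, 220.03 and 261 CPM in brain and at 65.2, 39.5, 11.1, 15.97 and 58.9 CPM in blood. The groups did not overlap (log2 fold change 2.13, SE 0.49, adjusted p = 0.0107), and the call ended without WT brain replicate 5 (0.0519) and without a filter (0.0750). Pmepa1, a membrane protein that is induced by TGF-beta and limits its signalling, stood at 231, 47.1, 352, 114 and 73.04 CPM in brain and at 41.9, 15.8, 33.4, 31.9 and 0 CPM in blood. Brain replicate 2, at 47.1 CPM, lay just above the highest blood library. Its log2 fold change was 2.47 (SE 0.64, adjusted p = 0.0412), and the call ended without 8 of the 10 WT libraries in turn (up to 0.266) and without the 2 libraries that stood apart (0.355). It also ended with limma voom (0.298), without a filter (0.145), with a filter of 5 CPM (0.0895), without mitochondrial, ribosomal protein and haemoglobin genes (0.0531) and with non-robust fits (0.0508).

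Dusp2 is also counted among the immediate early genes and their feedback regulators, which T cell activation, stress and tissue dissociation induce. Of 22 such genes listed, 9 passed the filter, 5 positive and 4 negative. Dusp2 was the only one called, against 5 of 2366 called higher over all genes (0.211%). At an unadjusted p under 0.05 in the edgeR test, 1 was higher in brain and 3 were lower. Jun stood at 81.7, 47.1, 58.6, 0 and 31.3 CPM in brain and at 116, 150.3, 189.5, 63.9 and 88.4 CPM in blood (log2 fold change -1.61, adjusted p = 0.394). Ier2 stood at 95.3, 124, 313, 228 and 146 CPM in brain and at 279, 214, 390.2, 335 and 432 CPM in blood (log2 fold change -0.98, adjusted p = 0.216). Both overlapped between the tissues and had their lowest values in brain. Over the 16 of these genes in the test of low counts the median was -0.87, against 0.36 over the 9 in the main test, so the direction of the list depended on the filter.

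Ccl5, a chemokine stored and secreted by memory and effector CD8+ T cells, was the most abundant called gene, at 1.70% to 2.52% of all counts in brain and 3.52% to 5.69% in blood. Ccl5 stood at 25247, 21759.5, 17005, 20394 and 19846 CPM in brain and at 56864, 43249, 40305, 35205 and 39943 CPM in blood. The highest brain library, replicate 1, lay below the lowest blood library, replicate 4 (log2 fold change -1.11, SE 0.19, adjusted p = 0.000121), and the fold change stayed between -1.21 and -1.01 without single libraries. Gzmm, granzyme M, a serine protease of cytotoxic granules, stood at 27.2, 11.8, 19.5, 7.59 and 10.4 CPM in brain and at 266, 142, 167, 63.9 and 147 CPM in blood. No brain library exceeded 27.2 CPM and no blood library fell below 63.9 (log2 fold change -3.49, SE 0.64, adjusted p = 0.000481, from 7 counts in brain and 109 in blood).

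The remaining cytotoxic genes were not called. Of 23 listed, 16 passed the filter, 11 of them negative, with a median of -0.51. Gzma, granzyme A, stood at 13.6, 118, 78.2, 45.5 and 83.5 CPM in brain and at 284, 293, 111, 639 and 2131 CPM in blood. Blood replicate 3 lay just inside the brain range and blood replicate 5 far above all others (log2 fold change -3.34, adjusted p = 0.0962). Gzma was called without WT blood replicate 5 (log2 fold change -2.25, adjusted p = 0.00734) or without WT blood replicate 3 (0.0249), and by DESeq2 (0.00308).

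The same blood library held the highest levels of further effector genes. Gzmb, granzyme B, stood at 204, 259, 156, 395 and 157 CPM in brain and at 275, 166, 111, 79.9 and 884 CPM in blood. Apart from blood replicate 5 the tissues overlapped, and the log2 fold change turned from -0.45 to 0.42 without that library (adjusted p = 0.899 with it and 0.886 without it). Klrg1, an inhibitory receptor of terminally differentiated effector cells, stood at 68.1, 23.5, 0, 37.9 and 20.9 CPM in brain and at 60.6, 103, 100.3, 128 and 295 CPM in blood. Blood replicate 1 lay inside the brain range, and Klrg1 was called by DESeq2 (0.0447) but not in the main test (log2 fold change -2.17, adjusted p = 0.121). Prf1, the pore-forming perforin, overlapped between the tissues (log2 fold change -1.58, adjusted p = 0.559). Klrc1, the NKG2A receptor chain, did not overlap, at 35.3 to 78.2 CPM in brain and 88.5 to 236 CPM in blood, and was not called (log2 fold change -1.68, adjusted p = 0.194). Nkg7, Srgn and Gzmk, genes of the granule machinery and granzyme K, had values between 0.02 and 0.06.

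Interferon-stimulated genes had higher brain values as a group, though Isg20 alone was called, against 5 of 2366 called higher over all genes (0.211%). Type I interferon acts through a transcription factor complex that includes Irf9 and binds a promoter element with repeated GAAA cores. Of 36 listed genes, 23 passed the filter, 19 positive and 4 negative, with a median of 0.68 against 0.02 over all tested genes. Higher brain values at an unadjusted p under 0.05 were found for 8 of the 23, against 83 of 2366 over all genes, and lower ones for none, against 89. As the list was chosen with earlier results of these data known, these shares describe it and do not test it. The median stayed positive in all 20 alternatives that gave one, from 0.37 after thinning to 0.85.

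Promoters of 3 members are printed to show the element itself. The bases before the gene start are from RefSeq on GRCm38.p6, read 5′ to 3′ on the strand of the gene, and capitals mark matches of GAAANNGAAA on either strand, with overlapping matches joined into 1 run. Isg15 at chr4:156200819-156201068, minus strand, has 3 matches on the gene's strand. Ifit1 at chr19:34640639-34640870, plus strand, has 2 matches on the opposite strand, so the capitals there read TTTC cores. Bst2 at chr8:71537473-71537722, minus strand, has 2 matches on the gene's strand.
Isg15: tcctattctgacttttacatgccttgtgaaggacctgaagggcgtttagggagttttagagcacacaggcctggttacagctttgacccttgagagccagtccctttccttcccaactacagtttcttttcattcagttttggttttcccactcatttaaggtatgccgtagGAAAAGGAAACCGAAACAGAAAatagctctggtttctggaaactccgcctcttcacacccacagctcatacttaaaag
Ifit1: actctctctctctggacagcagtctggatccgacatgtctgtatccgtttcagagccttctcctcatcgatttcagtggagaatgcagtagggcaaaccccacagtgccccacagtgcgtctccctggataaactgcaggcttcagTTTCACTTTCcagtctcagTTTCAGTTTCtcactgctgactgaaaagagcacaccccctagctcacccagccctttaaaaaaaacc
Bst2: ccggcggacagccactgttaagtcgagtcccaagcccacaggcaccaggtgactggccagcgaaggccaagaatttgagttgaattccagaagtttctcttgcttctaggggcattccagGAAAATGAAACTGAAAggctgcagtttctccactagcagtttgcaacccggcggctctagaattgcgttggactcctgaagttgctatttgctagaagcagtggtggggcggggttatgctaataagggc
Over the same stretch of up to 250 bases, 936 of the 27025 genes in the table (3.46%) held a match in at least 1 promoter. Of the interferon genes with a promoter entry, 18 of 30 held one, as did 10 of the 19 that were also tested. The 3 genes printed are among the 18, while Isg20, the 1 called, Irf9 and Ifi27l2a are not. A match describes the letters and not the binding of a factor.

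Isg15, a ubiquitin-like protein and one of the strongest interferon targets, stood at 177, 64.7, 371, 266 and 219 CPM in brain and at 46.6, 103, 78.04, 15.97 and 49.1 CPM in blood. Brain replicate 2 was the 1 brain library inside the blood range. The difference was not called with all libraries (log2 fold change 1.72, SE 0.47, adjusted p = 0.0676), but it was without WT brain replicate 2 (0.0183) and by DESeq2 (0.0453). Ifit1, an RNA-binding antiviral protein, stood at 27.2, 23.5, 137, 30.3 and 104 CPM in brain and at 13.97, 0, 11.1, 0 and 19.6 CPM in blood. The groups did not overlap, but blood held only 6 counts and the difference was not called (log2 fold change 2.39, SE 0.84, adjusted p = 0.273).

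Bst2, tetherin, which holds budding virus at the cell surface, stood at 136, 182, 117, 205 and 209 CPM in brain and at 116, 31.6, 89.2, 95.8 and 58.9 CPM in blood. Its lowest brain value, 117 CPM, lay next to its highest blood value, 116 CPM, without overlap (log2 fold change 1.05, adjusted p = 0.461). Ifi27l2a, a small interferon-induced membrane protein, stood at 694, 506, 528, 736 and 417 CPM in brain and at 396, 316, 401, 176 and 344 CPM in blood. Its groups did not overlap and it was not called (log2 fold change 0.72, adjusted p = 0.376). With Isg20, Ifit1 and Bst2, 4 of the 23 had all brain values above all blood values, against 35 of 2366 over all genes (1.48%). That share is descriptive as well. Irf9, the DNA-binding subunit of the interferon complex, had a log2 fold change of 1.45 (adjusted p = 0.401) and Ifit3 one of 1.20 (adjusted p = 0.628). Irf7 had a value of 0.63, and the 4 negative members were Rtp4, Samhd1, Gbp7 and Slfn2, from -0.43 to -0.01.

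**Figure D3:**
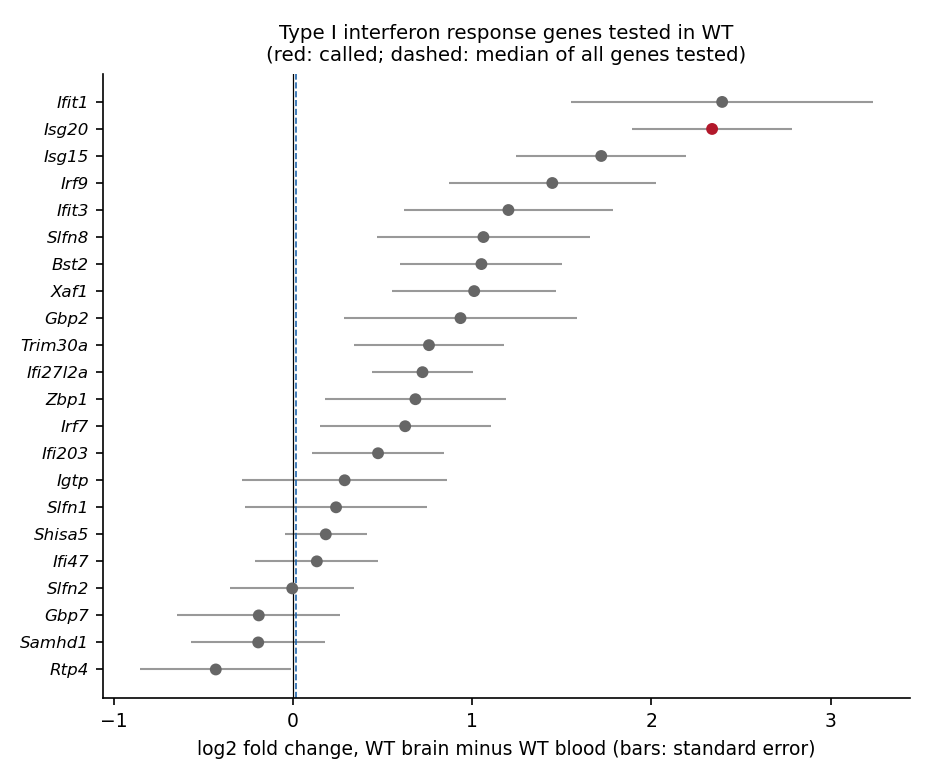
Log2 fold change of WT brain over WT blood, with standard error, for the interferon response genes tested, with 1 of the 23 not drawn. Isg20, in red, was the 1 called, most values lie above 0, and the dashed line marks the median of all tested genes, 0.02.

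Genes of antigen presentation by MHC class I are also induced by interferons. All 17 listed genes of MHC class I presentation passed the filter, 10 positive and 7 negative, with a median of 0.12 and none called, and that median turned negative in 4 of 20 alternatives. Values ran from -0.53 for Psme2, a proteasome activator subunit, to 1.06 for the peptide transporter gene Tap1 and 1.10 for H2-T22. The classical heavy chain genes H2-K1 and H2-D1 and the light chain gene B2m had values of 0.00, -0.04 and -0.07. H2-T22, a class Ib gene, stood at 177, 177, 195, 137 and 188 CPM in brain and at 97.8, 94.9, 22.3, 15.97 and 128 CPM in blood. Its groups did not overlap and it was not called (log2 fold change 1.10, adjusted p = 0.461). Reads of near-identical class I genes cannot be told apart with certainty.

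The genes of cytokine signalling, 25 listed and 11 tested, included no call. Cish, a feedback inhibitor of STAT5 signalling, stood at 231, 206, 235, 167 and 229.6 CPM in brain and at 97.8, 71.2, 33.4, 47.9 and 68.7 CPM in blood. Every brain library lay above every blood library, and Cish was called with only the WT libraries in the fit (0.0422) and by DESeq2 (0.0437), but not in the main test (log2 fold change 1.58, SE 0.46, adjusted p = 0.0962). Socs1, another inhibitor of JAK kinases, also did not overlap, at 159 to 277 CPM in brain and 39.3 to 150.3 CPM in blood (log2 fold change 0.90, adjusted p = 0.575). Pim1, a kinase induced by the same cytokines, had the opposite sign and stood at 531, 524, 1075, 455 and 626 CPM in brain and at 866, 1194, 1594, 1038 and 1099.99 CPM in blood. Brain replicate 3 alone reached the blood range, and without it Pim1 was called lower (log2 fold change -1.19, adjusted p = 0.0102, against -0.94 and 0.0865 with it), as it was without the 2 libraries that stood apart (log2 fold change -1.23, adjusted p = 0.0124).

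Among surface receptors, Tnfsf10, the death ligand TRAIL, stood at 122, 118, 156, 175 and 209 CPM in brain and at 18.6, 86.99, 44.6, 15.97 and 49.1 CPM in blood. The tissues did not overlap (log2 fold change 1.74, SE 0.53, adjusted p = 0.123). Cd28, the costimulatory receptor, stood at 54.4, 70.6, 97.7, 60.7 and 115 CPM in brain and at 186, 261, 134, 159.7 and 157 CPM in blood, with all brain values below all blood values and no call (log2 fold change -1.27, adjusted p = 0.236). Pdcd1, the inhibitory receptor PD-1, stood at 191, 135, 58.6, 68.3 and 73.04 CPM in brain and at 37.3, 15.8, 44.6, 31.9 and 68.7 CPM in blood. Only blood replicate 5 overlapped the lower brain libraries, and the difference was not called (log2 fold change 1.33, adjusted p = 0.619). Of 14 inhibitory receptors listed, Pdcd1 and Cd160 were the only ones to pass the filter. Gpr171, an inhibitory G-protein coupled receptor of T cells, lay at 224 to 372 CPM in brain and 31.9 to 205 CPM in blood without overlap (log2 fold change 1.14, adjusted p = 0.264).

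In brain, genes of migration and of the actin cytoskeleton had mostly small negative values. Of 22 listed, 19 passed the filter and 17 were negative, with a median of -0.30. Arl4c, a small GTPase of membrane traffic and cell shape, was the 1 called, against 13 of 2366 called lower over all genes (0.549%). Arl4c stood at 122, 147, 58.6, 197 and 136 CPM in brain and at 233, 459, 301, 655 and 334 CPM in blood. The groups did not overlap (log2 fold change -1.55, SE 0.33, adjusted p = 0.00566). The Arl4c call held without any single WT library (up to 0.0482) and ended without the 2 libraries that stood apart (log2 fold change -1.20, adjusted p = 0.119). Rasgrp2, the activator of Rap1 that switches on integrins in moving cells, stood at 54.4, 41.2, 58.6, 37.9 and 62.6 CPM in brain and at 121, 182, 78.04, 208 and 187 CPM in blood, without overlap and without a call (log2 fold change -1.68, adjusted p = 0.134). Ezr, ezrin, which links the membrane to actin, stood at 68.1, 64.7, 58.6, 30.3 and 62.6 CPM in brain and at 158, 174, 178, 256 and 128 CPM in blood. It too was separated between the tissues, and it was called with only the WT libraries in the fit (0.0406) and by DESeq2 (0.0410) but not in the main test (log2 fold change -1.69, adjusted p = 0.0892).

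Actb, the cytoplasmic beta-actin gene, ranged widely between libraries, at 3.64% to 12.5% of counts in brain and 6.67% to 14.7% in blood, and did not separate the tissues (log2 fold change -0.36, adjusted p = 0.927). The calcium-binding S100, annexin and galectin genes, which are high in effector memory cells, had 10 negative values among 12 tested, with a median of -0.36 and none called. Lgals1, galectin-1, was among them at 528 to 1017 CPM in brain and 892 to 1935 CPM in blood (log2 fold change -0.83, adjusted p = 0.0962).

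**Figure D4:**
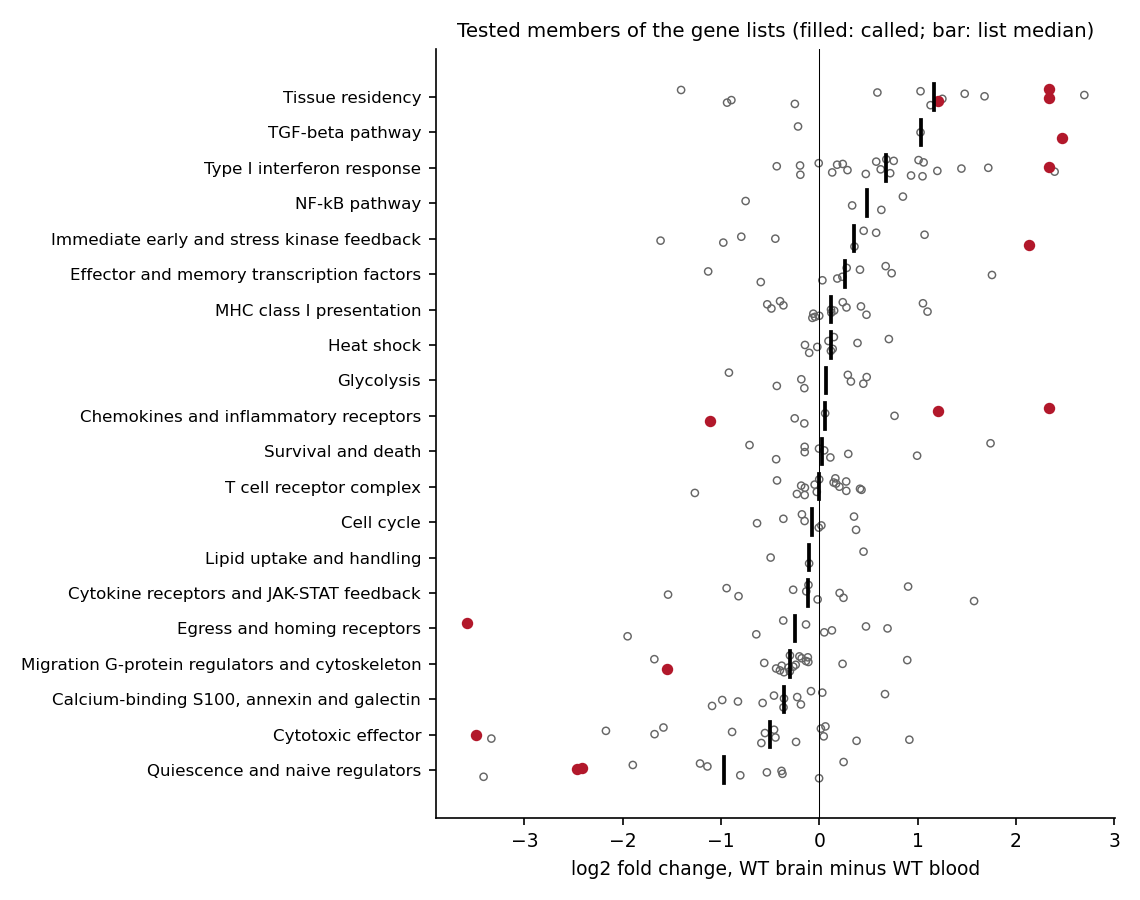
Log2 fold change of WT brain over WT blood for the tested members of each gene list with at least 3 of them (circles; filled where called) and the list median (bar); 1 called member of the egress list is not drawn. Residency and interferon genes lie mostly to the right of 0 and quiescence genes to the left, while T cell receptor, heat shock and glycolysis genes centre on 0.

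The T cell receptor complex, which marks the cells themselves, held no called gene. All but 1 of its 18 listed genes passed the filter, 8 positive and 9 negative, with a median of 0.00. Cd8a stood at 749, 642, 606, 1032 and 563 CPM in brain and at 498, 411, 613, 623 and 442 CPM in blood (log2 fold change 0.42, adjusted p = 0.759). Cd8b1 had a log2 fold change of -0.15 (SE 0.23) and Cd3e one of 0.28 (SE 0.26). Heat shock genes had a median of 0.12 over 9 tested, glycolysis genes 0.07 over 8 and cell cycle genes -0.08 over 8, with no call in any of the 3 lists. The transcription factors of effector and memory fate had a median of 0.26 over 10 tested and no call, with Eomes at -0.59 and Id2 at 0.18.

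Most genes with separated tissues were not called. Of the 47 uncalled genes whose groups did not overlap, those with at least 100 CPM in the higher tissue and the largest changes included Tcf3, the E protein E2A, at 58.6 to 150 CPM in brain and 15.97 to 33.4 CPM in blood (log2 fold change 1.84, adjusted p = 0.204). Dock10, a guanine nucleotide exchange factor, lay at 137 to 319 CPM in brain and 63.9 to 123 CPM in blood (log2 fold change 1.23, adjusted p = 0.182). Mycbp2, a large ubiquitin ligase, lay at 229.5 to 422 CPM in brain and 68.7 to 224 CPM in blood (log2 fold change 1.11, adjusted p = 0.182). The share of genes with separated tissues in the low-count test was 1.82%, and it ranged from 1.33% among genes with 20 to 99 counts over the WT libraries to 4.41% among those with 300 to 999.

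The share of genes called rose with the count of a gene. In the low-count test, 7 of 4346 genes with 20 to 99 counts were called (0.161%), 9 of 1212 with 100 to 299 (0.743%), 3 of 363 with 300 to 999 (0.826%) and 3 of 164 with 1000 or more (1.83%). The 3 in the highest range were Ccl5 and the haemoglobin genes Hba-a1 and Hba-a2, and the haemoglobin gene Hbb-bs was among those with 300 to 999. Above 100 counts the rise therefore rested on haemoglobin genes, which belong to other blood cells. The median SE of a log2 fold change fell along the same ranges from 0.83 to 0.45, 0.30 and 0.23, and the median size of the change from 0.53 to 0.33, 0.22 and 0.14. Below 100 counts, only large differences were therefore detectable at this depth.

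All 18 genes of the main test were called again in the low-count test, which added 4: Itga1, Trnt1, Cmah and Dynlt1a. Without the 2 libraries that stood apart it called 16 genes, 13 of them among the 22. Trnt1, the enzyme that adds the CCA end to transfer RNAs, stood at 54.4, 135, 117, 68.3 and 93.9 CPM in brain and at 9.32, 7.91, 11.1, 0 and 19.6 CPM in blood. The groups did not overlap (adjusted p = 0.0389 in the low-count test and 0.0505 in the main test, log2 fold change 3.00). Among the genes of the main test, DESeq2 (0.00828) and non-robust fits (0.0425) called Trnt1. It was not called in the main test without any single WT library (0.0514 to 0.134). Cmah, the hydroxylase that makes N-glycolylneuraminic acid, stood at 13.6, 5.89, 0, 15.2 and 0 CPM in brain and at 97.8, 47.4, 123, 144 and 19.6 CPM in blood. All brain values lay below all blood values (adjusted p = 0.0483 and 0.0865, log2 fold change -3.34), and DESeq2 called it too (0.0206). The main test without single WT libraries did not call Cmah where it passed the filter (0.137 to 0.138). The low-count calls of Trnt1 and Cmah were not tried in other settings.

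Dynlt1a, a dynein light chain, had 0 counts in all 5 brain libraries and 29 in blood, all from replicates 1, 3 and 4. With counts pooled per tissue and a floor of 3 counts over the brain group, Dynlt1a was at least 8.48-fold lower in brain, counting error only. The spread between libraries is not in that bound: blood replicate 1 gave 19 of the 29 counts, and blood replicates 2 and 5 had none. The call was at the threshold (adjusted p = 0.04996) and ended without any one of 7 WT libraries (up to 0.206), without the 2 libraries that stood apart (0.136) and with a filter of 10 counts (0.0778). Near-identical copies of this gene share its reads, so the value is uncertain.

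A last set of called genes belongs to other blood cells. The 4 adult haemoglobin genes, Hbb-bs, Hbb-bt, Hba-a2 and Hba-a1, had log2 fold changes of -3.78, -3.74, -3.88 and -4.06 (adjusted p from 8.89e-05 to 0.0130), and their summed share of counts was 0.0156% to 0.0873% in brain and 0.215% to 0.997% in blood. Hbb-bs stood at 68.1, 94.2, 39.1, 106 and 73.04 CPM in brain and at 424, 1471, 446, 1693 and 1375 CPM in blood. Within blood, replicates 1 and 3 held the least of all 4 genes. Within brain the genes did not share an order: replicate 3 held the least of Hbb-bs, none of Hba-a2 and Hbb-bt, and 117 CPM of Hba-a1. The Hbb-bt call ended without WT brain replicate 1 (0.0514), its fold change moved to -5.22 without WT brain replicate 4, and the calls of Hbb-bt (0.0745) and Hba-a1 (0.0755) ended without the 2 libraries that stood apart. Reads of the alpha copies, and of the beta copies, cannot be told apart with certainty. The red cell genes Alas2 and Slc4a1 had no count in any WT library.

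Igkc, the constant region of the immunoglobulin kappa chain of B cells, stood at 27.2, 64.7, 78.2, 45.5 and 31.3 CPM in brain and at 284, 261, 167, 239.6 and 78.6 CPM in blood. Blood replicate 5, at 78.6 CPM, lay just above the highest brain library, replicate 3 (log2 fold change -2.12, SE 0.53, adjusted p = 0.0307). The Igkc call ended without any one of 6 WT libraries (up to 0.116), without the 2 libraries that stood apart (0.0723) and with limma voom (0.0736). The summed level of the 10 B cell markers was 68.1 to 125 CPM in brain and 118 to 474 CPM in blood, most of it Igkc in blood. Of these markers, 5 had no count in brain, Ms4a1, Ighd, Iglc2 and Pax5 among them, and 4 had none in any WT library. Pde2a_1 is the name of a second entry beside Pde2a, a phosphodiesterase of cyclic nucleotides, and GENCODE M21 names its identifier Gm45837. Pde2a_1 stood at 13.6, 5.89, 0, 0 and 20.9 CPM in brain and at 0, 158, 178, 112 and 108 CPM in blood. Blood replicate 1, the deepest library, had no count of it, so the tissues overlapped, and the call (log2 fold change -3.63, adjusted p = 0.0307) ended without any one of 8 WT libraries (up to 0.152), without the 2 libraries that stood apart (0.115) and with limma voom (log2 fold change -1.48, adjusted p = 0.795).

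Marker lists of other cell types differed in level. The summed CD8 T cell markers reached 6803 to 8346 CPM in brain and 5551 to 7484 CPM in blood. Of 9 microglia markers, 8 had no count in brain, P2ry12 and Tmem119 among them, and 7 had none in any WT library. The microglia sum was 0 to 95.3 CPM in brain against 9.82 to 123 CPM in blood. The oligodendrocyte list reached 136 to 352 CPM in brain and 226 to 367 CPM in blood, with Mog, Mobp and Mag at 0, and the astrocyte list at most 39.1 CPM in brain. The monocyte list, at 489 to 835 CPM in brain and 746 to 1155 CPM in blood, consisted almost wholly of Ly6c2, which memory CD8+ T cells also carry. Lyz2, Cd14, Fcgr1 and Adgre1 had no count in brain, and 4 genes of that list had none in blood. The list of gamma-delta T cells gave 376 to 594 CPM in brain and 192 to 446 CPM in blood, with the delta constant gene Trdc at 0. The MHC class II list reached 27.2 to 97.7 CPM in brain and 68.7 to 272 CPM in blood. The part of such RNA in the other differences was not tested.

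**Figure D5:**
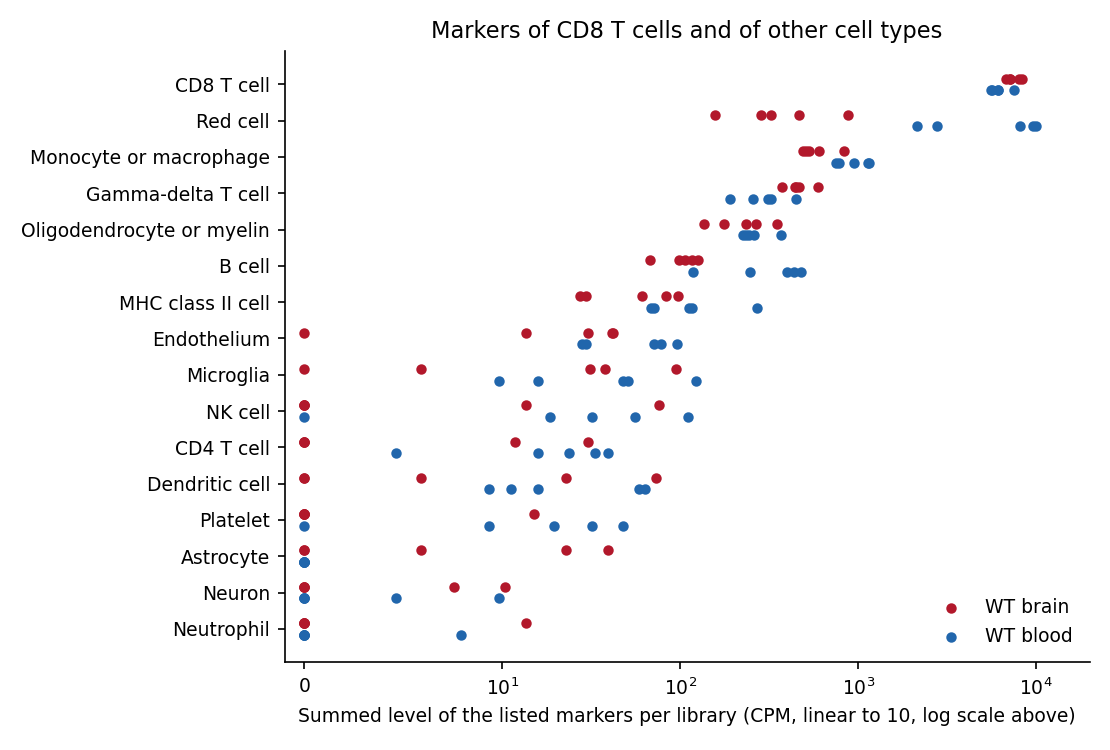
Summed level of listed markers of CD8 T cells and of 15 other cell types in each WT library (CPM; the axis is linear up to 10 and logarithmic above). Red cell markers lie higher in every blood library and B cell markers higher in most, while microglia markers reach at most 123 CPM in any library.

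To ask whether the tissue difference was particular to WT mice, it was tested against the same difference in APP-PS1 mice, whose 7 libraries share none with WT. The groups differ in sex as well, since APP-PS1 includes males, so strain and sex cannot be told apart. Of 2366 genes, 1 differed in its tissue effect (0.0423%), and 117 had an unadjusted p under 0.05, while DESeq2 and limma voom called 0. That gene was Igkc, with a log2 fold change of -2.12 in WT and 3.44 in APP-PS1 (adjusted p = 0.0759 there), a difference of -5.56 (SE 1.09, adjusted p = 0.0104). The APP-PS1 blood libraries held only 0, 1 and 1 counts of Igkc, so the APP-PS1 value and the difference rest on blood counts near 0. APP-PS1 brain replicate 2 alone held 492 CPM, and the difference was not called without that library or without APP-PS1 blood replicate 1. Klf2, Klf3, S1pr1, Cxcr6, Xcl1 and Isg20 showed no called difference in tissue effect between the strains, which does not show that the effects are equal.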

How the data were processed

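CD8+ T cell RNA of WT brain (5 libraries) and WT blood (5) was analysed, and 7 APP-PS1 libraries entered the shared fit. The authors deposited raw counts of reads per gene in whole numbers, without normalization. Per the submitters' processing notes, the tools were HTSeq 0.11.2, Bowtie2 2.2.2, DESeq2 and FastQC and the build GRCm38, with no role stated. The sources used here give no strand setting, annotation release or molecular identifiers. Each library was compared with the others of its group by chi-square, and none was a copy. Totals of 51161 to 214670 counts limit precision, and floors of 3 counts cover counting error only.

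The test was that of edgeR 4.0.16 under R 4.3.3: TMM scaling, filterByExpr (about 117 CPM in at least 3 libraries), robust quasi-likelihood fits with 1 mean per group over all 17 libraries, and Benjamini-Hochberg adjustment over all genes tested; adjusted p under 0.05 was called. The second fit kept genes with at least 20 WT counts. Standard errors were the absolute log2 fold change divided by the root of F, and CPM used total counts. Of 48709 identifiers, 48349 matched GENCODE M21 on GRCm38; promoters came from RefSeq. The steps were tested on simulated data.

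Members and the 21 gene lists and 15 marker lists were chosen with earlier results of these data known. Genes were named if called; if uncalled, separated between tissues and at least 100 CPM in the higher one (10 per direction by fold); if called at low count only; as up to 4 members per list; as the 10 most abundant per tissue; or from 23 fixed symbols. Not all are printed, and further list members were named after their values were seen. Of the called genes, 1 is not reported here. Alternatives were RLE scaling, DESeq2 1.42.0, limma 3.58.1 voom with quality weights, other filters, fits without mitochondrial, ribosomal protein and haemoglobin genes, thinning, non-robust fits, WT libraries only and each library left out. Figures were drawn with matplotlib 3.10.9.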

Additional observations from a re-analysis of the deposited data

Results flagged for a closer look

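Libraries that lay far from the other 4 of their group, by Dixon's criterion, were found in 15 of 152 sets of values examined. The criterion flags about 1 in 20 sets of independent, normally distributed values. Low counts are not so distributed, and some sets share genes, so the 15 cannot be set against that rate. In WT brain they were replicate 2 for Klf2 (200.1 CPM), replicate 5 for S1pr5 (20.9), replicate 4 for Xcl1 (622), Hbb-bt (121), Ezr (30.3, the lowest) and the summed NK cell markers (75.9), and replicate 3 for Pim1 (1075). In WT blood they were replicate 1 for Rgs1 (97.8), replicate 4 for the summed MHC class II markers (272) and oligodendrocyte markers (367), and replicate 5 for Gzma (2131), Gzmb (884), Klrg1 (295), Actb (146839) and the summed CD8 T cell markers (7484). WT blood replicate 5 was thus the highest of its group for 3 cytotoxic genes together. The tissue effect on Igkc differed between strains by -5.56 on the log2 scale (edgeR with Benjamini-Hochberg adjustment, adjusted p = 0.0104), with 0, 1 and 1 counts in the APP-PS1 blood libraries.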

How the results depend on the processing

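No paired analysis was possible because the labels carry no replicate numbers that brain and blood share. The count of 18 called genes became 18 with RLE scaling, 26 with DESeq2, 14 with limma voom, 16 of 13539 genes without a filter, 17 with a filter of 5 CPM in 3 libraries, 13 without mitochondrial, ribosomal protein and haemoglobin genes, 12 of 687 after thinning, 19 with non-robust fits, 14 with only the WT libraries and 12 to 19 without 1 WT library each. It fell to 10 without WT brain replicate 3 and WT blood replicate 4 together, a choice made after seeing the data. The 22 calls of the low-count test became 19 to 28 with other filters, scaling, DESeq2 or only the WT libraries, 16 to 26 without 1 WT library each and 16 without both libraries above. The 1 gene whose tissue effect differed between strains became 0 with DESeq2, with limma voom and after thinning, and 0 to 1 without single APP-PS1 libraries, also chosen after seeing the data. The log2 fold change of Gzmb, -0.45 and not called, turned to 0.11 with limma voom and to 0.42 without WT blood replicate 5, and ranged from -0.69 to 0.42 without 1 WT library each. The cause of these changes was not tested. Among the other genes given with values in every library, no direction turned in any setting tried.

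Depth limits these results: with a median SE of 0.83 on the log2 scale among genes of 20 to 99 counts, most moderate differences could not be detected there. The main test with fewer genes and the low-count test adjust over different numbers of genes, so their adjusted p differ by construction. WT brain replicate 3 and WT blood replicate 4 are the shallowest of their groups, and depth was not separated from what else sets them apart.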
